A study of Mus musculus with 6 samples.

Results

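The genes described here are the tumour necrosis factor (TNF) superfamily of mouse, its receptors, and the adaptors and feedback proteins that act beneath those receptors. They were taken by name from the deposited gene table: every symbol starting with Tnfsf, Tnfrsf or Tnfaip, or with Traf and a number, together with Tnf, Lta, Ltb, Ltbr, Fas, Cd40, Cd27, Cd70, Tradd, Fadd, Tnip1, Tnip2, Tnip3, Birc2 and Birc3. The rule goes by name and uses no measured value, though earlier results of these data were known. It gave 61 of the 26096 genes in the table. Fasl was also asked for and is not analysed here.

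The study asked what conditioned medium of dying macrophages does to microglia, the resident macrophages of the brain. Wild-type (WT) mouse microglia received medium from bone marrow-derived macrophages (BMDMs) undergoing ferroptosis, an iron-dependent death by lipid peroxidation (FeM CM, 3 libraries, called ferroptotic medium below), or medium from normal BMDMs (C CM, 3 libraries, called control medium). The ferroptosis inducer, the time in medium, the age of the animals and whether the microglia were primary cells or a line are not stated in what was used here. The labels do not say whether the 3 libraries of a group were grown separately, so p-values reflect only the spread between these libraries, which may be technical.

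The libraries held 39624311 to 50557794 reads, as worked out from the deposited values, and libraries correlated at 0.980 or more within a group and at 0.962 to 0.967 between groups. Of the microglia and macrophage markers, Csf1r and Cd68 were abundant, whereas P2ry12 had 3, Tmem119 21 and Fcrls 5 reads over all 6 libraries, so the markers that set microglia apart from other macrophages were close to absent. The summed level of 10 such markers lay between 131224 and 136546 normalized counts in the control libraries and between 107376 and 107632 with ferroptotic medium. T cell markers summed to at most 5.87 normalized counts in any library and B cell markers to at most 67.6. Of the oligodendrocyte markers, Mbp was lower (6444 to 6916 normalized counts with control medium and 4006 to 4218 with ferroptotic medium, log2 fold change -0.69), as was Cnp, whereas Mag was higher (1.01). Of the fibroblast list Dcn was higher (8.49 ± 2.84 against 40.4 ± 18.1 normalized counts), with 10 reads of Col1a1 and 1 of Col1a2 over all libraries. Pecam1 of the endothelial list was also higher (199 to 219 against 291 to 308 normalized counts) and Cdh5 did not pass. Astrocyte markers summed to 141 to 169 and 97.5 to 128 normalized counts (1 of 2 tested lower), and neuronal ones to at most 8.81. The neutrophil and myeloid gene S100a8 moved from 9.25 to 15.7 normalized counts up to 133 to 160 with ferroptotic medium. The part of these shifts in the results below was not tested. Less RNA of a gene per cell and fewer cells that express it cannot be told apart in such bulk samples.

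TNF ligands are mostly trimeric proteins of the cell surface that can be shed, and their receptors fall into those with a death domain and those that recruit TRAF proteins directly. TNF itself is made by activated macrophages and microglia and binds TNFR1 (Tnfrsf1a), which has a death domain and can signal through NF-kB or to cell death, and TNFR2 (Tnfrsf1b), which has none and binds TRAF2. NF-kB in turn raises a set of genes that restrain the same pathway, among them the ubiquitin-editing enzyme A20 (Tnfaip3) and its partner ABIN-1 (Tnip1).

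Of the 61 genes, 53 reached 10 normalized counts in 3 or more libraries and were tested. Normalized counts are reads divided by a size factor of each library, and a gene was called where limma's p-value, adjusted over all 15597 genes tested, was under 0.05. By that rule 28 of the 53 (52.8%) differed between the media, against 42.5% of all genes tested. Of these, 20 (37.7%) were higher with ferroptotic medium, against 19.7% of all genes, and 8 (15.1%) were lower, against 22.8%. With a log2 fold change of at least 0.5 in size, 13 of the 53 were higher, against 9.73% of all genes. All 8 lower genes (15.1%) met that limit too, against 10.6% of all genes. The median log2 fold change was 0.14 over the 53 genes and -0.0050 over all genes, and single values ran from -4.26 to 2.64. The count of 8 lower genes was 5 without control replicate 3 and also 5 without ferroptotic replicate 2. Among the lower genes, Tnfsf8 and Tnfsf10 reached 10 normalized counts in 3 libraries only with their control values. Among the higher ones, the same held for Tnfrsf8 with its ferroptotic values. For these genes the limit on counts itself favoured the direction called, and they are kept in the counts given.

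The plot of log2 fold changes by role shows where these calls fell. Among receptors 9 of 18 tested were higher and 1 lower, and their median on the log2 scale was 0.22. The TNF-induced and TNIP proteins gave 5 higher and 2 lower of 9 tested (median 0.30). Ligands gave 2 higher and 4 lower of 11 tested (median -0.33), and of 7 TRAF genes Traf1 alone was called (median -0.10). Of the 4 lower ligands, Tnfsf8 and Tnfsf10 could be tested only because of their control values, which favoured a fall. Tnfrsf8, among the higher receptors, could be tested only because of its ferroptotic values. Tnfsfm13 shares exons with Tnfsf12 and Tnfsf13, so 1 locus is counted more than once among the ligands. The counts and medians are descriptions, and the differences between roles were not tested.

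**Figure D1:**
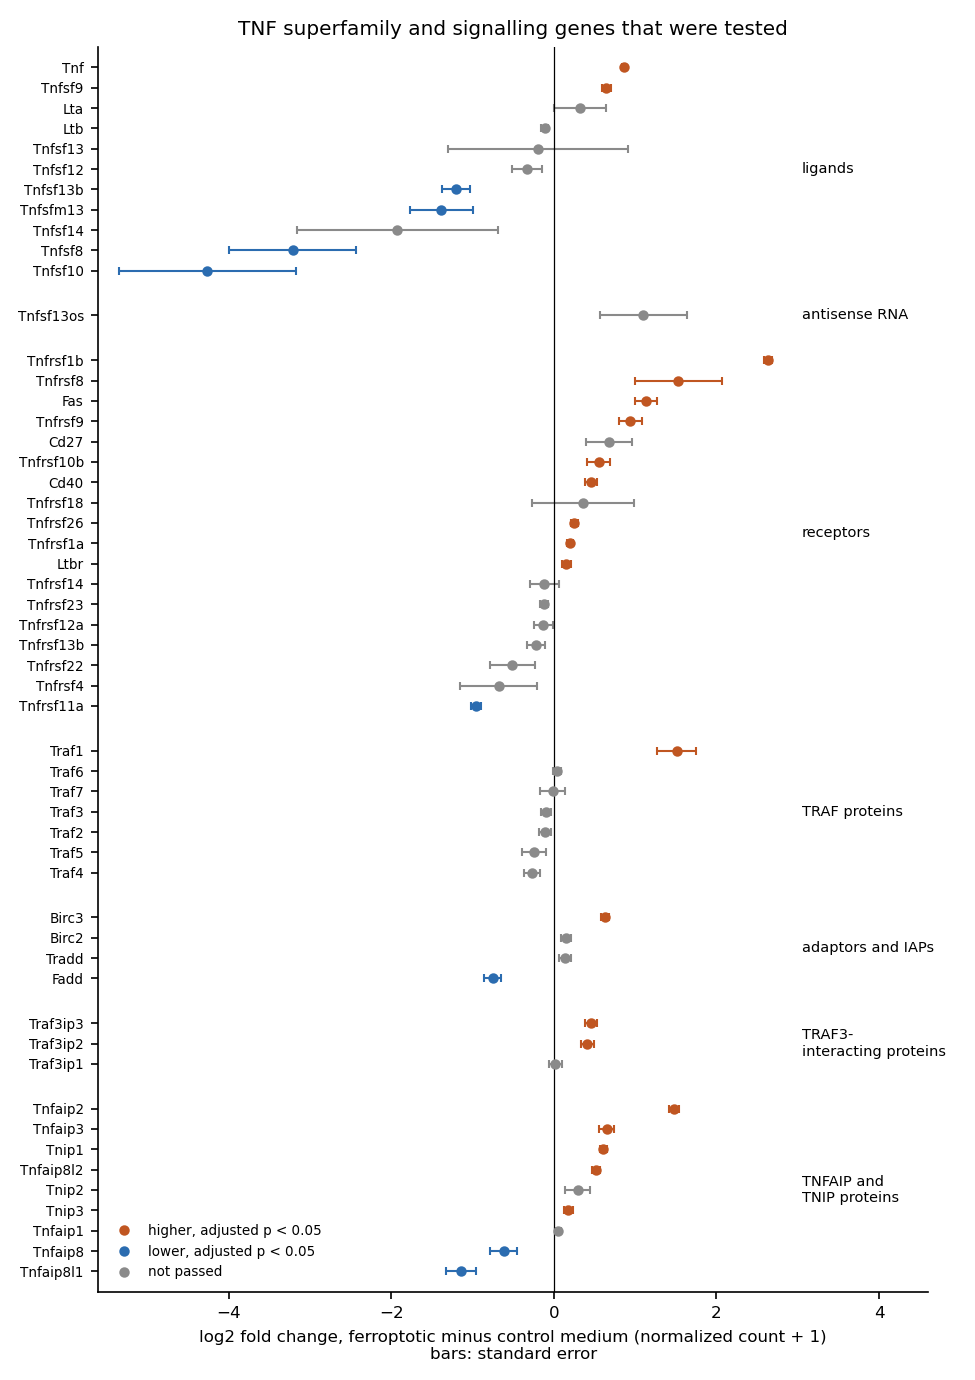
Log2 fold change (ferroptotic against control medium; horizontal axis, log2 scale) of the 53 tested genes, grouped by role, with bars for the limma standard error. Values run from -4.26 for Tnfsf10 to 2.64 for Tnfrsf1b, and the standard errors are widest for genes of low count such as Tnfsf10 and Tnfsf14.

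Among the ligands, Tnf (ENSMUSG00000024401) was the most abundant. It had 19286.5, 19632 and 19689.8 normalized counts in the 3 control libraries and 35787.5, 35086 and 35579.8 with ferroptotic medium. The groups lay far apart and each was tight. Tnf rose by 0.86 on the log2 scale (SE 0.02, n = 3 per group, limma adjusted p = 5.42e-08). Per kilobase of exon, the level of Tnf rose from 11919.6 ± 133 to 21650.0 ± 219.9 normalized counts (mean ± SD).

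Tnfsf9 (ENSMUSG00000035678) encodes the ligand of CD137, a costimulatory receptor, and also rose. Its normalized counts were 978, 947 and 934 with control and 1529, 1482 and 1459.7 with ferroptotic medium, without overlap. On the log2 scale the difference was 0.64 (SE 0.06, adjusted p = 3.03e-05). Ltb, which pairs with lymphotoxin alpha in a membrane-bound complex and lies beside Tnf and Lta in the genome, was not called. Its values were 3239, 3189 and 3237 against 3059, 2949 and 2933, slightly lower in each ferroptotic library, and the test was not passed (log2 fold change -0.11, adjusted p = 0.0524). Per kilobase, the ratio of Tnf to Ltb averaged 5.61 ± 0.0941 with control medium against 11.0 ± 0.201 with ferroptotic medium, and its values did not overlap (exact permutation test, two-sided p = 0.1, the smallest that 3 against 3 allows). Lta was low at 38.2 to 74 and 46 to 88.6 normalized counts, and its groups overlapped (adjusted p = 0.463).

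The 4 ligand genes that fell were all of low count. Of these, Tnfsf10 and Tnfsf8 could be tested only because of their control values. Tnfsf13b (ENSMUSG00000031497), encoding the B cell survival factor BAFF, had 462, 390.2 and 325 normalized counts with control and 138, 175 and 195 with ferroptotic medium. The lowest control library was well above the highest ferroptotic one. The difference was -1.21 on the log2 scale (SE 0.17, adjusted p = 0.000527).

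Tnfsf10 (ENSMUSG00000039304), encoding the death ligand TRAIL, had 97, 82.4 and 95.9 normalized counts in control medium and 0, 4.09 and 21 in ferroptotic medium. All 3 ferroptotic libraries were low but they varied widely among themselves on a log scale. The log2 fold change was -4.26 (SE 1.09, adjusted p = 0.0228), and it depended on the constant added before the logarithm: with 10 in place of 1 it was -2.63 (adjusted p = 0.000688). The group means themselves differed 11.0-fold, less than the log2 value gives. The call was lost without any 1 of the control libraries (adjusted p = 0.0608, 0.0567 and 0.0627) and without ferroptotic replicate 2 (0.0891).

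Tnfsf8 (ENSMUSG00000028362), the ligand of CD30, fell from 36.2, 28.6 and 24.5 to 0, 7.16 and 3.32 normalized counts. The groups did not overlap, but each value rests on few reads. Tnfsf8 reached 10 normalized counts in 3 libraries through the control group alone, so being tested at all favoured a fall. Its fitted log2 fold change was -3.21 (SE 0.78, adjusted p = 0.00969), and -1.58 with 10 added before the logarithm (adjusted p = 0.00162), and the means differed 8.52-fold.

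Tnfsfm13 (ENSMUSG00000018752) is a read-through of the neighbouring genes Tnfsf12 (TWEAK) and Tnfsf13 (APRIL, a B cell factor). It had 105, 214 and 167 normalized counts with control and 45.7, 45 and 99.7 with ferroptotic medium. The highest ferroptotic value came close to the lowest control value. It had a log2 fold change of -1.38 (SE 0.39, adjusted p = 0.0247). The call was lost without control replicate 2 or 3 and without ferroptotic replicate 1 or 2, where the adjusted p reached 0.0909. With every library kept, it was also lost in limma without its trend and robust settings (adjusted p = 0.0516). In the GENCODE M21 annotation 48.3% of the exon bases of Tnfsf12 and 60.0% of those of Tnfsf13 also belong to Tnfsfm13 on the same strand, so the split of reads among the 3 is uncertain. Tnfsf12 alone had 173, 274 and 271 against 195, 175 and 188 normalized counts, and Tnfsf13 had 97.9, 10.1 and 61.7 against 55.3, 66.5 and 11.1. Neither passed the test (adjusted p = 0.187 and 0.91). Summed over the 3 genes, the locus gave 376, 499 and 500 normalized counts with control and 296, 286 and 299 with ferroptotic medium. That sum was lower in each ferroptotic library, by 0.63 on the log2 scale (log2 difference -0.63, exact permutation test, two-sided p = 0.1, the smallest possible). The antisense RNA Tnfsf13os, which overlaps these genes on the opposite strand, had 4.21 to 10.8 and 11.3 to 26.6 normalized counts (adjusted p = 0.131). No source used here says whether counting used strand, so its reads and those of its partners cannot be told apart. Tnfsf14, which encodes LIGHT, had 22.5 to 34.3 and 0 to 22.5 normalized counts and did not pass (adjusted p = 0.272).

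**Figure D2:**
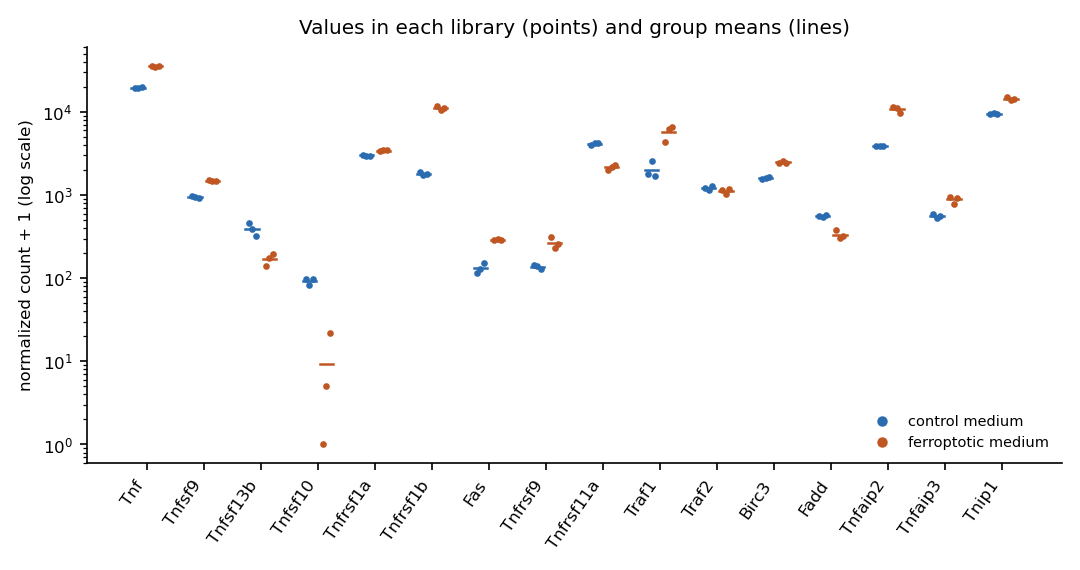
Normalized counts of selected genes in each of the 6 libraries (vertical axis, log scale of normalized count plus 1), with control medium and ferroptotic medium side by side and 1 point per library. Tnfrsf1b separates from 1732 to 1894 with control to 10703 to 11762 with ferroptotic medium, while the low-count ligand Tnfsf10 scatters down to 0 with ferroptotic medium. Short lines mark group means.

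Both receptors for TNF itself were called higher, and TNFR2 had the highest log2 fold change of the 53 genes tested. Tnfrsf1b (ENSMUSG00000028599, TNFR2) had 1894, 1732 and 1798 normalized counts with control medium and 11762, 10703 and 11263 with ferroptotic medium. The distance between the groups was many times the spread within either. It rose by 2.64 on the log2 scale (SE 0.05, adjusted p = 6.89e-09), the means differed 6.22-fold, and the gene ranked at position 94 of all 15597 genes tested by the size of its rise. In the authors' deposited FPKM values the same gene was at 10.4, 9.46 and 9.75 with control and at 63.5, 57.9 and 59.9 with ferroptotic medium.

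Tnfrsf1a (ENSMUSG00000030341, TNFR1) had 3007, 2992 and 2983 normalized counts with control and 3367, 3439 and 3484 with ferroptotic medium. Here too the groups did not overlap, though the step was small. Its log2 fold change was 0.20 (SE 0.04, adjusted p = 0.00343). Per kilobase, the level of TNFR2 message went from 474 ± 21.3 to 2945 ± 139 normalized counts, and that of TNFR1 from 1156 ± 4.61 to 1324 ± 22.9. Within each library, the ratio of Tnfrsf1b to Tnfrsf1a per kilobase was 0.428, 0.393 and 0.409 with control medium, then 2.37, 2.11 and 2.19 with ferroptotic medium. TNFR1 message was therefore the more abundant per length in every control library and TNFR2 message in every ferroptotic library. The mean ratio differed 5.43-fold (0.410 ± 0.0173 against 2.23 ± 0.132, exact permutation test, two-sided p = 0.1, the smallest possible).

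**Figure D3:**
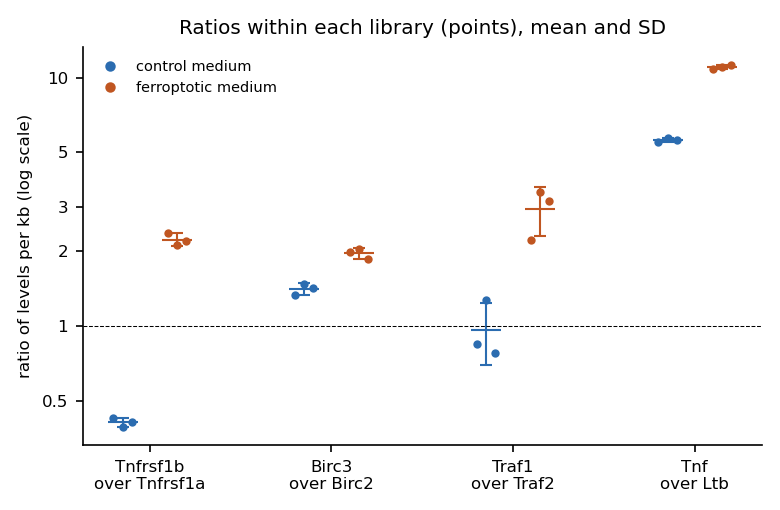
Within-library ratios of per-kilobase levels for 4 gene pairs (vertical axis, ratio on a log scale), 1 point per library with group mean and SD. The ratio of Tnfrsf1b to Tnfrsf1a is below 1 in the 3 control libraries (0.393 to 0.428) and above 1 in the 3 ferroptotic libraries (2.11 to 2.37).

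Of the other receptors with a death domain, Fas (ENSMUSG00000024778) had 114, 129.5 and 151 normalized counts with control and 285, 292 and 287 with ferroptotic medium. The ferroptotic values were nearly equal to each other and all above the control values. Fas rose by 1.14 on the log2 scale (SE 0.14, adjusted p = 0.000181). Tnfrsf10b (ENSMUSG00000022074), the mouse death receptor for TRAIL, had 342, 248 and 291 against 382, 431 and 475 normalized counts. The highest control value lay just under the lowest ferroptotic value. Its log2 fold change was 0.55 (SE 0.14, adjusted p = 0.012). The message of TRAIL itself (Tnfsf10) was called lower, but it could be tested only because of its control values. That call was lost in 4 of 14 alternative analyses.

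Tnfrsf22 and Tnfrsf23 encode TRAIL decoy receptors without a death domain, and Tnfrsf26 is a neighbour of theirs. Tnfrsf26 rose slightly (log2 fold change 0.25, adjusted p = 0.00242), and Tnfrsf23 at 4821 to 5092 and 4361 to 4759 normalized counts did not pass (adjusted p = 0.0578). Tnfrsf22 had 1740.3, 1714 and 1734 normalized counts with control and 798, 1461 and 1538 with ferroptotic medium. Ferroptotic replicate 1 stood far below its group. The test was not passed with it (log2 fold change -0.51, adjusted p = 0.211) and was passed without it (-0.21, adjusted p = 0.0224). Tnfrsf22 and Tnfrsf23 share 17.3% and 18.0% of their 50-base stretches with each other, so reads may have been split between them.

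Receptors that signal through TRAFs without a death domain gave further rises. Tnfrsf9 (ENSMUSG00000028965, CD137) had 143, 139.6 and 128 normalized counts with control and 314, 230.2 and 255 with ferroptotic medium, without overlap. CD137 message rose by 0.94 on the log2 scale (SE 0.15, adjusted p = 0.000827), so this receptor and its ligand Tnfsf9 were both called higher. Cd40 (ENSMUSG00000017652), the receptor through which T cells license antigen-presenting cells, had 544, 519.7 and 533 against 739, 721 and 729. Both groups were tight and separate. Cd40 rose by 0.46 on the log2 scale (SE 0.07, adjusted p = 0.000823).

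Tnfrsf8 (ENSMUSG00000028602, CD30) had 7.83, 35.3 and 9.79 normalized counts with control and 54.2, 42 and 34.3 with ferroptotic medium. Control replicate 2 exceeded the lowest ferroptotic library, so the groups overlapped. Tnfrsf8 could be tested only because of its ferroptotic values. It passed narrowly (log2 fold change 1.53, SE 0.53, adjusted p = 0.0479), and the call was lost in 11 of 14 alternative analyses, where the adjusted p reached 0.141, among them those without control replicate 1 or 3 or any 1 of the ferroptotic libraries. Ltbr, the lymphotoxin beta receptor, was called with a small rise (2222 to 2374 against 2449 to 2653 normalized counts, log2 fold change 0.16, adjusted p = 0.0366), and that call was lost in 8 of the 14 (highest adjusted p 0.122), among them those without control replicate 2 or 3 or ferroptotic replicate 1 or 3.

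Tnfrsf11a (ENSMUSG00000026321) was the 1 receptor called lower. It encodes RANK, the receptor through which RANK ligand drives osteoclast formation from macrophage precursors. It had 4003, 4282 and 4175 normalized counts with control and 1995, 2147 and 2303 with ferroptotic medium. The groups were separate by a wide margin. This was a log2 fold change of -0.95 (SE 0.06, adjusted p = 3.55e-06). In control medium the RANK message was above that of TNFR2 per kilobase, at 694 ± 23.5 normalized counts, and in ferroptotic medium it was at 359 ± 25.7. The per-kilobase order of the receptors in control medium began with Tnfrsf23 at 1254 ± 34.5, Tnfrsf1a at 1156 ± 4.61, Ltbr at 977 ± 32.2, Tnfrsf26 at 841 ± 5.16 and Tnfrsf11a, with Tnfrsf1b the sixth. In ferroptotic medium Tnfrsf1b was the highest of the 18 receptors tested, above Tnfrsf1a at 1324 ± 22.9 and Tnfrsf23 at 1153 ± 50.5, as the plot of per-kilobase levels shows.

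The receptors Cd27, Tnfrsf4 (OX40), Tnfrsf12a (the TWEAK receptor), Tnfrsf13b (TACI), Tnfrsf14 (HVEM) and Tnfrsf18 (GITR) did not pass. Cd27 was nearest among them, with 29.4, 53.8 and 48.9 against 76.6, 78.8 and 54.3 normalized counts (log2 fold change 0.68, adjusted p = 0.0891). The TWEAK receptor had 348 to 402 and 298 to 379.6 normalized counts and TACI 383 to 426 and 324 to 389, and in both the groups overlapped.

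**Figure D4:**
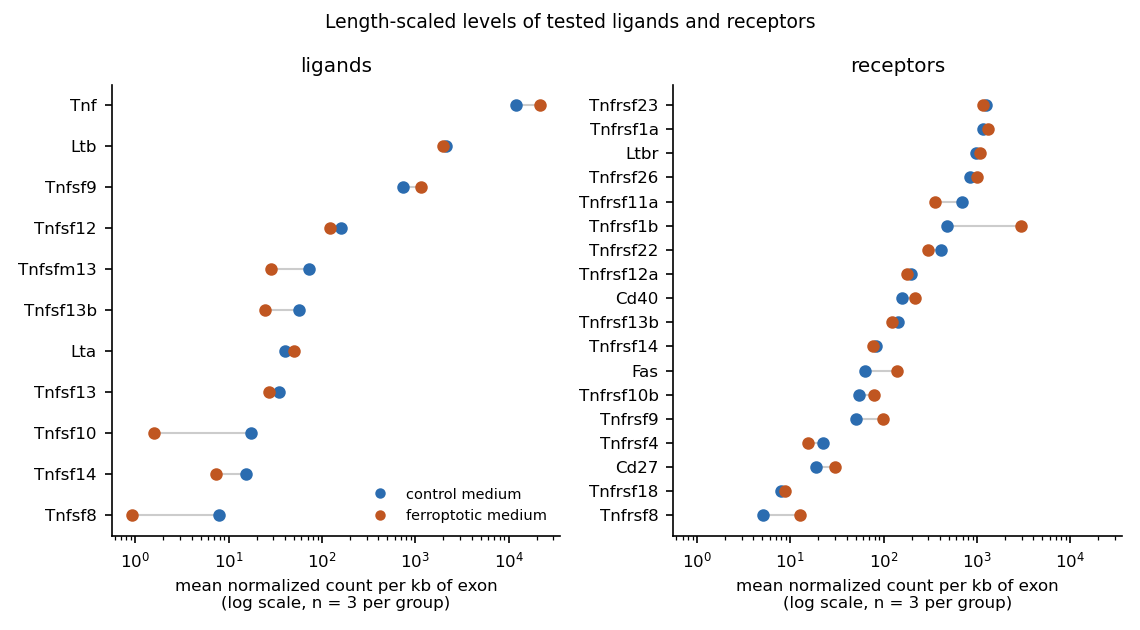
Mean normalized counts per kilobase of exon (horizontal axis, log scale) of the ligands and receptors tested, in control medium and in ferroptotic medium, joined by a line for each gene. Tnf is the highest at 11919.6 and 21650.0, and Tnfrsf1b moves from 474 to 2945.

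TRAF proteins bind the receptor tails and carry the signal to kinases. Traf1 (ENSMUSG00000026875), an inducible member that lacks the RING domain of the others and pairs with TRAF2, had 1769, 2573 and 1699 normalized counts with control and 4388.5, 6257 and 6520.1 with ferroptotic medium. Control replicate 2 and ferroptotic replicate 1 stood apart in their groups, but the groups did not overlap. Traf1 rose by 1.51 on the log2 scale (SE 0.24, adjusted p = 0.00674). Traf2 (ENSMUSG00000026942), which joins both TNF receptor complexes, had 1204, 1166 and 1268 against 1144, 1044 and 1185. These ranges overlapped and the test was not passed (log2 fold change -0.11, adjusted p = 0.252). Their ratio per kilobase, Traf1 over Traf2, was 0.967 ± 0.271 with control and 2.96 ± 0.655 with ferroptotic medium (exact permutation test, two-sided p = 0.1, the smallest possible). Traf3, Traf4, Traf5, Traf6 and Traf7 had log2 fold changes between -0.27 and 0.04 and none passed (adjusted p from 0.0573 to 0.956).

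Among the adaptors and inhibitor of apoptosis (IAP) ubiquitin ligases of the TNF receptor complex, Birc3 (ENSMUSG00000032000, cIAP2) rose. It had 1546, 1621 and 1638 normalized counts with control and 2435, 2545 and 2453 with ferroptotic medium, in 2 tight groups. It was higher by 0.63 on the log2 scale (SE 0.05, adjusted p = 1.41e-05). Its paralogue Birc2 (cIAP1) had 1003 to 1063 and 1117 to 1211 normalized counts and was not called (log2 fold change 0.15, adjusted p = 0.0802), though it was after quantile normalization (0.20, adjusted p = 0.0256). The ratio of Birc3 to Birc2 per kilobase was 1.41 ± 0.0744 with control and 1.96 ± 0.0944 with ferroptotic medium, again at the smallest exact permutation p of 0.1. Fadd (ENSMUSG00000031077), the death-domain adaptor that brings caspase 8 to Fas and the TRAIL receptor, had 553, 542 and 574 against 375, 299.8 and 320.1 normalized counts. All ferroptotic values were below all control values. Its log2 fold change was -0.75 (SE 0.10, adjusted p = 0.000454), so the adaptor message fell where the messages of Fas and Tnfrsf10b rose. The exons of Fadd overlap an antisense gene, Faddos, in GENCODE M21, whose reads cannot be told apart if counting ignored strand. Among the other genes called, the same holds for 14.9% of the exon bases of Tnfsf9, 12.7% for Tnfaip8, 7.95% for Traf3ip2, 7.30% for Traf3ip3, 6.30% for Tnfaip2, 3.33% for Tnfrsf26 and 1.81% for Tnfaip8l1, each of which overlaps a gene on the opposite strand. Tradd, the adaptor of TNFR1, did not pass (872 to 908 against 939 to 1062, adjusted p = 0.153).

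The TRAF3-interacting genes gave 2 small rises of 3. Traf3ip2, which encodes the IL-17 receptor adaptor Act1, had 1102 to 1337 and 1567 to 1708 normalized counts (log2 fold change 0.41, adjusted p = 0.003), and Traf3ip3 had 765 to 864 and 1049 to 1151 (0.46, adjusted p = 0.00119). Traf3ip1, a protein of cilia, was at 0.02 (adjusted p = 0.892).

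Of the 9 TNFAIP and TNIP genes tested, the 5 that rose were Tnfaip2, Tnfaip3, Tnip1, Tnip3 and Tnfaip8l2. Tnfaip2 (ENSMUSG00000021281, M-Sec, which promotes membrane nanotubes between cells) had 3925, 3860.2 and 3848 normalized counts with control and 11561, 11250.2 and 9786 with ferroptotic medium. The groups were far apart. Tnfaip2 rose by 1.48 on the log2 scale (SE 0.06, adjusted p = 3.3e-07). Tnfaip3 (ENSMUSG00000019850, A20) had 595, 531 and 560.0 against 952, 785 and 918, also without overlap. Its log2 fold change was 0.65 (SE 0.09, adjusted p = 0.000574).

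Of the A20-binding proteins, 2 of 3 were called. Tnip1 (ENSMUSG00000020400, ABIN-1) had 9401, 9649.6 and 9421 normalized counts with control and 15215, 13804 and 14453 with ferroptotic medium. The separation was wide and the log2 fold change was 0.61 (SE 0.04, adjusted p = 4.54e-06). Tnip3 (ABIN-3) was called with a small rise (log2 fold change 0.18, adjusted p = 0.0208), lost in 4 of the 14 alternatives (highest adjusted p 0.0592), among them those without control replicate 2, control replicate 3 or ferroptotic replicate 3. Tnip2 (ABIN-2) had 1175, 785 and 1146 against 1289, 1224 and 1244 normalized counts, with control replicate 2 apart from its group, and did not pass (adjusted p = 0.172).

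The TNFAIP8 family, which binds lipid messengers, gave calls in both directions. Tnfaip8l2 (ENSMUSG00000013707, TIPE2, a brake on innate immune signalling) had 2841, 2948 and 3064 normalized counts with control and 4298, 4133 and 4258.5 with ferroptotic medium. It rose without overlap (log2 fold change 0.52, SE 0.04, adjusted p = 2.22e-05). Tnfaip8l1 (ENSMUSG00000044469) had 177, 215 and 274 against 113, 89 and 96.4, and fell without overlap (log2 fold change -1.14, SE 0.19, adjusted p = 0.00121). Tnfaip8 (ENSMUSG00000062210) had 2141, 1420.5 and 2109.7 normalized counts with control and 1214, 1143 and 1279 with ferroptotic medium. Control replicate 2 was nearer to the ferroptotic libraries than to its own group. The log2 fold change was -0.62 (SE 0.17, adjusted p = 0.0267), and the call was lost without control replicate 1 or 3 and without any 1 of the ferroptotic libraries (highest adjusted p 0.0928). Tnfaip1, a cullin-3 adaptor unrelated in sequence to these, did not pass (log2 fold change 0.05, adjusted p = 0.358).

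The upstream sequence of the genes was read for the NF-kB consensus, since the group is rich in genes that NF-kB is known to raise. RefSeq promoters (GRCm38.p6, 250 bases before the annotated start) were at hand for 50 of the 61 genes. The motifs were picked after the expression values were known. Some genes have more than 1 promoter, and a gene was counted where any of its promoters held a match. A match to the NF-kB consensus on either strand lay before the start of 6 of 15 higher genes (40.0%), namely Tnfaip2, Tnfaip3, Tnfrsf8, Tnfrsf9, Tnip1 and Tnip3. It lay before 1 of 7 lower genes (Tnfaip8l1), 2 of 21 that did not pass (Ltb and Traf3), 1 of 7 untested genes (Tnfrsf25) and 8.23% of all 27025 genes with a promoter (7.25% of 32851 promoters). The AP-1 motif TGANTCA was found in 4 of 15 higher, 1 of 7 lower and 2 of 21 genes that did not pass, against 7.82% of all genes. It overlapped an NF-kB match in 0 of the 56 promoters of these genes. Only 3 genes (Tnfaip3, Tnfrsf8 and Tnfrsf9) held both motifs, so an overlap could occur only there. Of the genes with both motifs, Tnfrsf8 could be tested only because of its ferroptotic values. The call of Tnfrsf8 was lost in 11 of 14 alternative analyses and that of Tnip3 in 4. A match describes letters and is not a measured binding site, and the part of NF-kB in these changes was not tested. The 130 bases before the start are shown for 4 genes that rose and hold a match, with the match in capitals, and for Tnfrsf1b and Tnf, which rose without a match in the 250 bases.
Tnfaip3 (chr10:19015411-19015540, minus strand): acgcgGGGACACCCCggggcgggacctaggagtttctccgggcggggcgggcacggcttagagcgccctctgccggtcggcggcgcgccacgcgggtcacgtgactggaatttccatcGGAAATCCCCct
Tnip1 (chr11:54962941-54963070, minus strand): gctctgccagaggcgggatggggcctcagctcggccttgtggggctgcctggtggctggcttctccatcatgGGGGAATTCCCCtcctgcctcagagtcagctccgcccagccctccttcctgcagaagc
Tnfrsf9 (chr4:150927869-150927998, plus strand): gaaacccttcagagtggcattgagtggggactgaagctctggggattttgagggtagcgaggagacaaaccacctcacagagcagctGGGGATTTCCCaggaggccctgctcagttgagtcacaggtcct
Tnfaip2 (chr12:111442531-111442660, plus strand): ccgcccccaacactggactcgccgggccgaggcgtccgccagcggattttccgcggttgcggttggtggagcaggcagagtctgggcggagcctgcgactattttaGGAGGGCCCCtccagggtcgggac
Tnfrsf1b (chr4:145246871-145247000, minus strand): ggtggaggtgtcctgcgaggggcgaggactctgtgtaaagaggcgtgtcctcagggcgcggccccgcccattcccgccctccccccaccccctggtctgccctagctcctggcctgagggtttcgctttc
Tnf (chr17:35202008-35202137, minus strand): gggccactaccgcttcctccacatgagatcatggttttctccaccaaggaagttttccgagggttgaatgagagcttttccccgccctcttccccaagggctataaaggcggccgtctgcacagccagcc

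In these windows Tnip1 carried overlapping matches that merged into 1 stretch starting 58 bases before the annotated start, Tnfrsf9 overlapping matches starting 43 bases and Tnfaip2 a match 24 bases before it, and Tnfaip3 held 2 separate matches, the farther 125 bases away. The log2 fold changes of these 4 genes were 0.61, 0.94, 1.48 and 0.65, and that of Tnfrsf1b, which had no match here, was 2.64. Tnfrsf1b had the highest value of the 53 genes tested, so any other gene lies below it and the order says nothing of the motif.

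Genes under the low-value filter were not tested. Tnfaip6, a hyaluronan-binding protein induced by TNF, had 0, 0 and 2.94 normalized counts with control and 11.7, 6.14 and 17.7 with ferroptotic medium, 36 reads in all. The values were higher in each ferroptotic library. The rest were Tnfsf15 (48 reads over the 6 libraries), Tnfrsf17 (26), Tnfsf18 (20), Cd70 (15), Tnfrsf25 (7), Tnfrsf19 (3) and Tnfrsf13c (2). Thus Tnfrsf13c and Tnfrsf17, which encode receptors of BAFF, and the ligands of CD27 and GITR were close to or at the limit of detection. Another receptor of BAFF, TACI (Tnfrsf13b), was well detected, at 383 to 426 normalized counts with control and 324 to 389 with ferroptotic medium.

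A list of 45 other genes of the pathway was drawn up by function, with earlier results of these data known. It gave 10 higher and 10 lower of 40 tested, close to the 19.7% and 22.8% of all genes, and the median over these 40 was 0.07 on the log2 scale. Timp3, Eda, Edar and Ngfr are not analysed here. Among the genes that shed TNF from the cell surface, the protease Adam17 did not pass (11656.5 ± 191 against 10481 ± 1140.2 normalized counts, log2 fold change -0.16, adjusted p = 0.145). Its cofactor Rhbdf2 (iRhom2), which brings the protease to the surface of macrophages, had 6369.8, 6965 and 6766 normalized counts with control and 10516, 9409 and 9930.2 with ferroptotic medium. These did not overlap and the log2 fold change was 0.57 (SE 0.05, adjusted p = 2.98e-05).

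In the ubiquitin machinery of the receptor complex, Spata2, which links the deubiquitinase CYLD to the linear ubiquitin ligase, had 1346, 1331 and 1319 normalized counts with control and 2595, 2594 and 2657 with ferroptotic medium. Both groups were tight and the log2 fold change was 0.97 (SE 0.05, adjusted p = 6.76e-07). Tank, a TRAF-binding scaffold, was also higher (log2 fold change 0.51, adjusted p = 0.000219). The TAK1-binding proteins Tab2, with 6063, 6225 and 6140.0 against 3356, 3413 and 3660.4 normalized counts, and Tab1, with 1219, 1389 and 1250.1 against 917, 879 and 843, were both lower and without overlap. Their log2 fold changes were -0.82 (adjusted p = 1.24e-06) and -0.55 (adjusted p = 0.00036). In the death arm, Cflar (cFLIP, which restrains caspase 8) was higher at 9312 ± 417 against 6087 ± 206 normalized counts (log2 fold change 0.61, adjusted p = 7.87e-06). Relt, a receptor of the superfamily outside the naming rule, was lower (log2 fold change -0.51, adjusted p = 0.00121).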

How the data were processed

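Per the labels' protocols, total RNA of 6 microglia samples was made into mRNA libraries and sequenced on an Illumina instrument. The tools named in the submitters' processing notes are HISAT2 2.1.0 (an aligner), fastp 0.17.1, R 3.4.3 and DESeq2 1.18.1, while the build, annotation, counting tool and strand setting are not stated there. The authors deposited log2 values for 26096 genes, group means, a log2 fold change and p-values, and FPKM for 1699 genes, 11 of them among those described. The authors' p-values were not used. Undoing the log gave whole multiples of 1 read (within 0.01) for 100% of values, so the scale is log2(normalized count + 1). The added 1 compresses folds of low genes, but a group with a library at or near 0 can give a log2 fold change above the fold of its means. Reads of 3 were more frequent than of 2 (6101 against 5169 values), so they may be rounded estimates. Size factors were 0.903 to 1.19.

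limma 3.58.1 (trend, robust, two-sided, R 4.3.3) was fitted to the deposited log2 values of the 15597 genes that reached 10 normalized counts in 3 or more libraries, with Benjamini-Hochberg adjustment over them and a threshold of 0.05. Each mean and SD covers the normalized counts of 3 libraries, and SE is limma's. Lengths are merged GENCODE M21 exons, and relative to the lengths implied by the authors' FPKM they differed by a near-constant factor (median 1.13, 715 genes). The script was tested on simulated data. Values in every library are given for genes passing with a log2 fold change of at least 0.5 in size and for Tnf, Tnfrsf1a, Tnfrsf1b, Tnfaip3, Cd40, Fas, Traf2 and Birc3; the other pathway genes named pass the same limits, beside Adam17 and Rhbdf2. Genes and lists, the marker lists included, were chosen with earlier results of these data known. Alternatives were another scaling, filter, added constant and test, a replicate block, and leaving out each library.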

Additional observations from a re-analysis of the deposited data

How the results depend on the processing

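Under 14 alternatives the genes called numbered 5798 to 6732 (6629 as reported), the TNF family genes called 22 to 29 (28) and the other pathway genes 18 to 23 (20). Leaving out 1 library gave 5 to 9 lower family genes (8 as reported). Of the 28 called genes, 22 kept the call under every alternative and 24 under all that kept every library, and 0 changed sign. The 6 that lost it somewhere were Ltbr, Tnfaip8, Tnfrsf8, Tnfsf10, Tnfsfm13 and Tnip3; the cause was not tested. Scaling to library totals added Ltb (-0.13), Tnfrsf23 (-0.14) and Traf4 (-0.28), giving 11 lower family genes. Quantile normalization added Birc2 (0.20) and Tnfaip1 (0.11), giving 21 higher ones, and a filter of 1 normalized count added Tnfaip6. No sign reversed among called genes. Among uncalled ones, these log2 fold changes reversed: Traf3ip1 scaled to library totals (-0.0032) and Traf7 after quantile normalization (0.034). Leaving out 1 library moved Tnfrsf18 between -0.21 and 0.92, Tnfsf13 between -1.14 and 0.59, Traf3ip1 between -0.039 and 0.056 and Traf7 between -0.10 and 0.12. With the replicate number as a replicate block, 6226 genes and 26 family genes were called, Ltbr and Tnfrsf8 being lost. Same-numbered libraries did not deviate together (correlations 0.0086, -0.0196 and -0.0393), no control library correlated best with its own number, and the numbers were not taken as pairs. Genes near 10 normalized counts rest on about 10 reads a library, which limits Tnfsf8, Tnfsf10 and Tnfrsf8.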
